A study of Mus musculus with 3 samples.

Results

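Cadherins are calcium-dependent adhesion proteins that hold neighbouring cells together, and 10 of their genes were followed in the developing mouse kidney: Cdh1, Cdh2, Cdh3, Cdh4, Cdh6, Cdh8, Cdh11, Cdh13, Cdh16 and Cdh17. Their array features are those whose platform annotation gives exactly 1 gene symbol equal to a listed name. There were 11 such features, 2 for Cdh6 and 1 for each other gene. Of these, 9 features of 8 genes had a value on all 3 arrays and were used for means, out of 14433 named genes and 19015 rows (named genes plus unnamed features) in all. Cdh2 and Cdh8 lacked values on at least 1 array and are described from the arrays that measured them. The 10 genes were picked with their ratios on these arrays already known, so the values below are a description. The limma fit, run over all rows, is no test of these genes.

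Fetal kidneys at 13.5 days post coitum (dpc) and metanephroi, the first rudiments of the permanent kidney, at 11.5 dpc were microdissected from CD1 mice. Material of both sexes was pooled at each age, nothing was altered genetically or by treatment, and the RNA was amplified before labelling. Each of 3 Compugen mouse oligonucleotide arrays carried both ages, with 11.5 dpc in channel 1 and 13.5 dpc in channel 2. The dye order was red/green on arrays 1 and 2 and green/red on array 3. The value of a feature is a log2 ratio, whose likely direction is 11.5 over 13.5 dpc, because the labels name the ages in that order and put 11.5 dpc in channel 1. A negative value is therefore read as higher at 13.5 dpc, and every direction below turns round if that reading is wrong. The labels also do not settle whether the ratios of array 3 were already turned to match its opposite dye order. Array 3 is used as deposited, and values with its sign turned are given further on. Ratios hold no level of either age, so the tissue could not be checked by the level of its markers.

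When metanephric mesenchyme condenses and becomes epithelium, cells exchange mesenchymal cadherins for epithelial ones, a textbook feature of nephron formation. The classical cadherins bind the same cadherin on the next cell through their outer part and the actin cytoskeleton through catenins on their inner part. Cdh1 (E-cadherin) marks the ureteric bud and the distal nephron, Cdh6 (K-cadherin) the early nephron and later the proximal tubule, and Cdh11 mesenchyme. Cdh16 (Ksp-cadherin), largely restricted to kidney epithelium, and Cdh17 (LI-cadherin), best known from intestine, have extra outer repeats and a short inner tail.

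The log2 ratios over all rows had standard deviations from 0.56 on array 1 to 0.93 on array 3 but robust standard deviations (from the median absolute deviation) of 0.48, 0.45 and 0.47, so the arrays differed in their tails more than in their bulk. The rows had medians from -0.091 on array 3 to 0.063 on array 2. Across rows, which are not independent replicates, Pearson's correlation was 0.27 between arrays 1 and 2, 0.12 between arrays 1 and 3, and -0.12 between arrays 2 and 3. Spearman's was 0.36, 0.13 and 0.001, so the negative value between arrays 2 and 3 is not seen by rank. Limma called 0 of 19015 rows (0%) at a Benjamini-Hochberg adjusted p under 0.05, with 1757 rows (9.24%) at an unadjusted p under 0.05. Of all rows, 18.5% were negative on every array, 16.8% were positive on every array, and 0.436% were negative and at least 2-fold on every array.

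Among the epithelial cadherins, Cdh16 stood far from zero and Cdh1 near it. Cdh16 had log2 ratios of -1.54, -1.76 and -1.58 on arrays 1, 2 and 3. All 3 values lay beyond 2-fold on the same side, and the size of the ratio ran from 2.90-fold on array 1 to 3.38-fold on array 2. The mean was -1.62 ± 0.12 (SD, n = 3 arrays), read as 3.08-fold higher at 13.5 dpc. Arrays 1 and 2, with red/green dyes, averaged -1.65, and array 3, with green/red dyes, gave -1.58 as deposited. Both dye orders thus gave nearly the same ratio if array 3 is already turned, and opposite ones (1.58 on array 3) if it is not. Ordered by the size of the mean, Cdh16 took place 205 of 19015 rows as deposited and place 2826 with array 3 turned. As deposited, 0.873%, 3.16% and 1.90% of rows lay below it on arrays 1, 2 and 3. Because whole tissue was measured, fewer cells carrying a transcript and less transcript per cell cannot be told apart for this or any other gene here.

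Cdh1, the epithelial cadherin of adherens junctions, had log2 ratios of -0.30, 0.084 and 0.16 on arrays 1, 2 and 3. The sign differed between arrays, and the mean of -0.018 ± 0.25 (SD, n = 3 arrays) was smaller than the spread. Without array 1 it was 0.12. The ratio of Cdh16 lay below that of Cdh1 on each array, by log2 differences of -1.23, -1.84 and -1.74, so these epithelial cadherins did not have the same ratio between the ages. A shift common to all features of an array cancels in such a difference.

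Cdh3 (P-cadherin), a classical cadherin of epithelia named for its discovery in placenta, had log2 ratios of -0.72, -0.23 and -0.13 on arrays 1, 2 and 3. All were negative, with array 1 standing apart and the other arrays close to zero, and the mean was -0.36 ± 0.31 (SD, n = 3 arrays), or -0.18 without array 1. In the GRCm38.p6 gene order Cdh3 and Cdh1 are adjacent protein-coding genes, and their features also lie close together in the oligonucleotide library. Whether either nearness bears on their ratios was not tested. The ratio of Cdh3 lay below that of Cdh1 by -0.42, -0.31 and -0.30 on the 3 arrays, a log2 difference of -0.34 ± 0.07 that varied less between arrays than either gene did.

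Cdh17 had log2 ratios of -0.33, -0.22 and -0.94 on arrays 1, 2 and 3. Each was negative, but array 3 was far lower than the others, and the mean of -0.50 ± 0.39 (SD, n = 3 arrays) drew much of its size from that array. By dye order, the mean was -0.28 on arrays 1 and 2, against -0.94 on array 3. With array 3 turned in sign, the mean became 0.13.

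**Figure D1:**
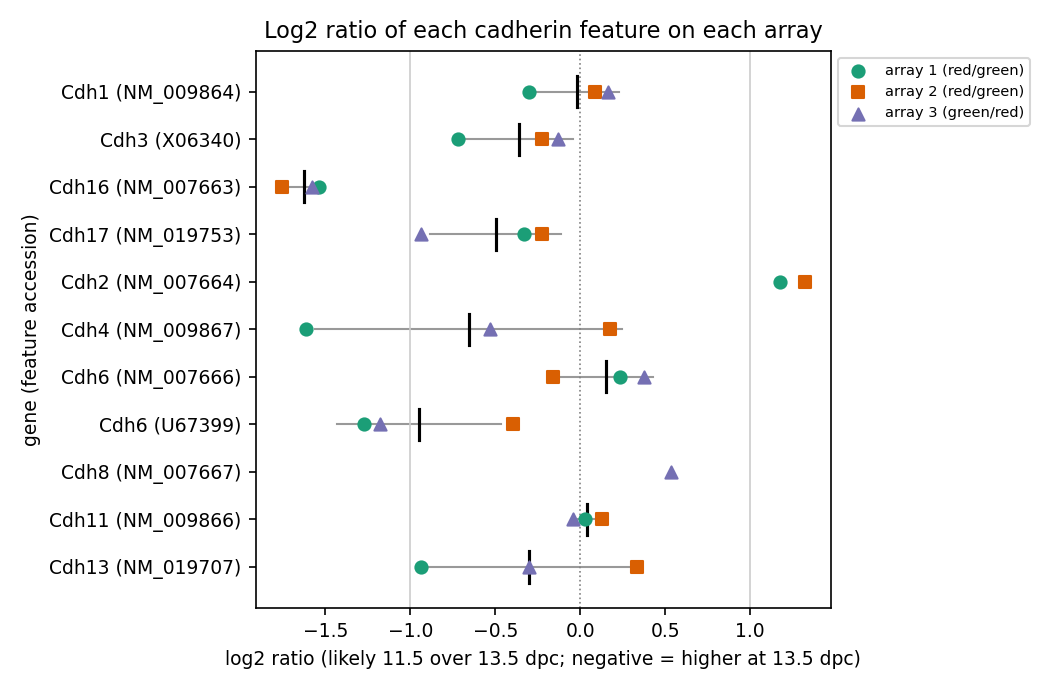
Log2 ratio of each of the 11 cadherin features (vertical axis, with the accession each feature was designed from) on arrays 1 to 3 (points); black ticks are means over 3 arrays and grey bars are ± SD, drawn only for features with all 3 values, and pale vertical lines mark 2-fold. The 3 points of Cdh16 lie together between -1.76 and -1.54, while the points of Cdh4 and Cdh13 spread to both sides of zero.

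Cdh6, a type II cadherin of the early nephron, was measured by 2 features that differed. The feature designed from U67399 had log2 ratios of -1.27, -0.39 and -1.18 on arrays 1, 2 and 3, with a mean of -0.95 ± 0.48 (SD, n = 3 arrays). The feature designed from NM_007666 had 0.24, -0.16 and 0.38, with a mean of 0.15 ± 0.28 (SD, n = 3 arrays). The U67399 feature was negative on every array and the NM_007666 feature was not, and they differed by log2 values of -1.51, -0.23 and -1.55. Their average was -0.52, -0.28 and -0.40 on the 3 arrays, a mean of -0.40 ± 0.12 whose small SD hides the disagreement between the features. The sequences of the array oligonucleotides were not analysed here, so which transcripts each feature reports is not known.

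The cadherins known from mesenchyme and nerve gave no common pattern. Cdh11, a type II cadherin of loose mesenchyme, had log2 ratios of 0.026, 0.13 and -0.041 on arrays 1, 2 and 3. The size of the ratio was at most 1.09-fold on these arrays, and the mean was 0.038 ± 0.086 (SD, n = 3 arrays), and 5.96% of rows had a smaller SD. Cdh2 (N-cadherin), the classical cadherin of mesenchyme and neurons, had 1.17 on array 1 and 1.32 on array 2 and no value on array 3. Both values are over 2-fold and read as lower at 13.5 dpc, but they share a dye order, so age and dye cannot be told apart for Cdh2. Cdh8, a type II cadherin of the nervous system, had a single value of 0.53 on array 3.

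Cdh4 (R-cadherin), a classical cadherin described in retina and in kidney mesenchyme turning to epithelium, had log2 ratios of -1.62, 0.18 and -0.53 on arrays 1, 2 and 3. Array 1 was over 3-fold from equal levels while array 2 lay on the other side of zero, and the mean of -0.66 ± 0.90 (SD, n = 3 arrays) was smaller than its SD. Without array 1 the mean was -0.18. Cdh13 (T-cadherin), held in the membrane by a lipid anchor and known from vessels and smooth muscle, had -0.94, 0.33 and -0.30. Its arrays too lay on both sides of zero, and the mean was -0.30 ± 0.64 (SD, n = 3 arrays). Without array 1 that mean was 0.016.

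**Figure D2:**
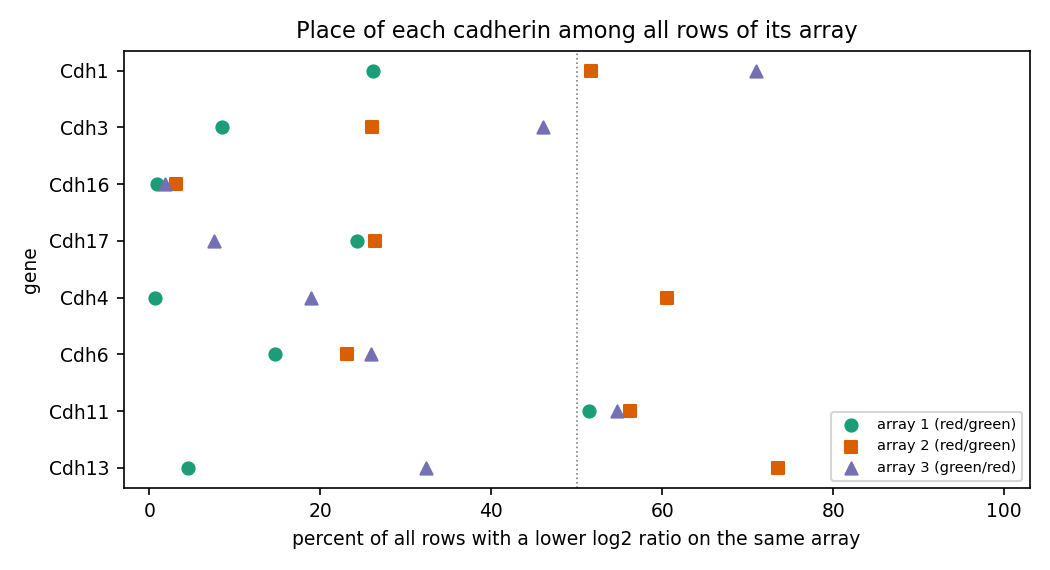
Percent of all 19015 rows that had a lower log2 ratio than the cadherin on the same array (horizontal axis) for the 8 genes with values on every array; points are arrays and the dotted line is the middle of the rows. With the ratios as deposited, Cdh16 lies between 0.873% and 3.16% on all arrays, Cdh11 between 51.4% and 56.2%, and Cdh13 between 4.54% and 73.5%.

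Of the 8 cadherins with values on every array, 4 were negative on all of them (Cdh3, Cdh6, Cdh16 and Cdh17) and 0 positive. These counts stand beside 18.5% and 16.8% of all rows. Cdh6 is counted by the average of its 2 features, of which NM_007666 was positive on arrays 1 and 3. Cdh16 was the 1 that was at least 2-fold on every array, beside 0.436% of all rows. The median of their means was -0.38, beside -0.0084 over all rows. Limma's adjusted p was under 0.05 for 0 of the 8, as for 0% of all rows. At an unadjusted p under 0.05 there was 1 (Cdh16), beside 9.24% of all rows. Nothing is read from these counts, since the genes were picked with these ratios known.

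The cadherin features stand close together in the oligonucleotide library, where ratios as a whole lay low on arrays 1 and 2. A running median in library order, taken over each feature and the 250 on each side, was between -0.35 and -0.28 at the cadherins on array 1, close to its lowest value anywhere in the library (-0.35), while the median of all rows on that array was 0.012. It was between -0.21 and -0.18 on array 2 and between -0.085 and -0.057 on array 3, against row medians of 0.063 and -0.091, so on array 3 the local level was slightly above that of all rows. The cadherin ratios were also taken with this local level subtracted, and its cause was not tested. Cdh16 then had -1.23, -1.58 and -1.51, a mean of -1.44 ± 0.18 (SD, n = 3 arrays), still over 2-fold on every array. Within that window around Cdh16, 4.59%, 3.99% and 1.60% lay lower on arrays 1, 2 and 3.

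The means of the other cadherins moved up on subtraction. Cdh1 became positive on every array, with 0.012, 0.27 and 0.24, and so did Cdh11, with 0.33, 0.31 and 0.026. Cdh3 kept a negative sign with -0.40, -0.033 and -0.048, of which only array 1 is away from zero, and its mean became -0.16. The features of Cdh6 still disagreed, with means of -0.73 for U67399 and 0.33 for NM_007666. Cdh17 had -0.052, -0.032 and -0.88, so its ratio outside array 3 was that of its surroundings in the library. The median of the 8 means was -0.18 after subtraction, beside -0.0034 over all rows, with 4 negative on every array (17.5% of all rows) and 2 positive on every array (17.7% of all rows).

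The orientation of array 3, which the labels do not settle, bears on all means. As deposited, 130 rows lay beyond 2-fold in a shared direction across the arrays, against 42 with array 3 turned. More of the large ratios thus kept a common direction as deposited. Over all rows the arrays said less, since Spearman's correlation of array 3 was 0.13 with array 1 and 0.001 with array 2. Pearson's was 0.12 with array 1 and -0.12 with array 2, and both change sign if array 3 is turned. Which orientation is right was not tested. With array 3 turned, 0 of the 8 cadherins were negative on every array (10.3% of all rows) and 1, Cdh11, was positive (18.9% of all rows). Cdh16 then had a mean of -0.57 ± 1.87 (SD, n = 3 arrays), because -1.54 and -1.76 stood against 1.58.

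**Figure D3:**
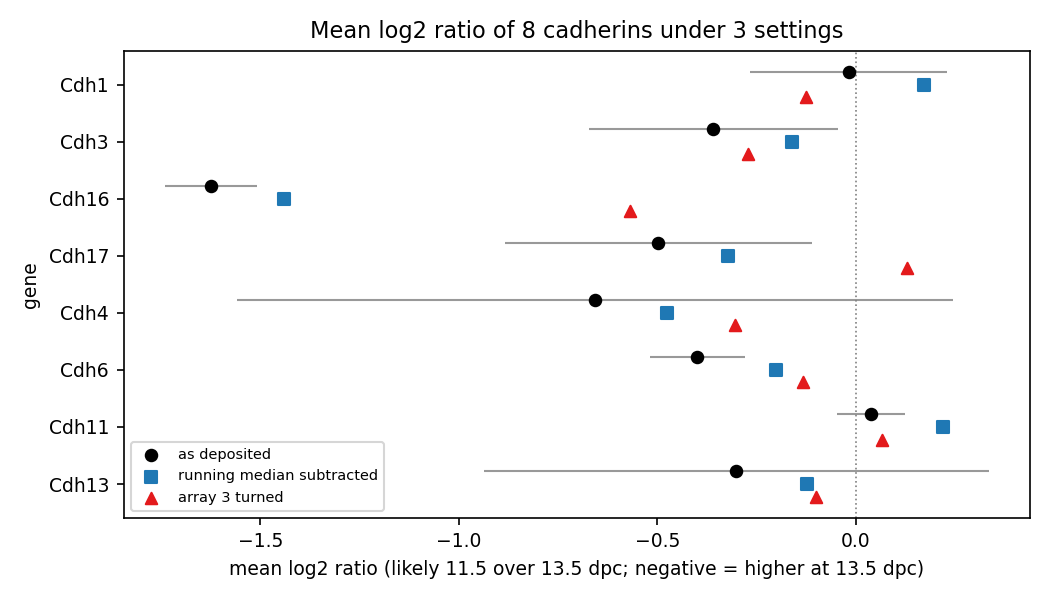
Mean log2 ratio over 3 arrays of 8 cadherins as deposited (black circles, grey bars ± SD), after subtraction of the running median along the library (blue squares), and with the sign of array 3 turned (red triangles). Cdh16 lies at -1.62, -1.44 and -0.57, and Cdh17 moves to 0.13 with array 3 turned.

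The rows whose 3 ratios lay nearest to those of Cdh16, by Euclidean distance over the 3 arrays, were Cdc42ep2 (distance 0.24), Klf4 (0.27), Smoc2 (0.31), Col4a3 (0.32) and Cbfb (0.35). Cdc42ep2 encodes an effector of the small GTPase Cdc42, Klf4 a zinc finger transcription factor, Smoc2 a matrix protein, Col4a3 a collagen of the mature glomerular basement membrane, and Cbfb a partner of Runx factors. Their means ran from -1.73 for Klf4 to -1.57 for Col4a3. The likeness covers only 3 arrays of 1 comparison. In the GRCm38.p6 gene order the protein-coding neighbours of Cdh16 are Pdp2 and Rrad, named for their place and not by their values. Pdp2, a mitochondrial phosphatase subunit gene, had log2 ratios of 0.62, -0.077 and -0.036, and Rrad, which encodes a small GTPase, had -0.40, -0.44 and -1.32. Neither reached 2-fold on every array as Cdh16 did.

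Partners of the cadherins at the junction lay nearer to zero than Cdh16. Of 18 measured genes of the catenin and adherens junction plaque list, 6 were negative and 2 positive on every array, beside 18.5% and 16.8% of all rows. None was at least 2-fold on every array, near the shares of all rows (0.436% negative, 0.247% positive). The median of means was -0.16. Ctnnb1 (β-catenin), which links cadherins to α-catenin, had log2 ratios of -0.45, 0.54 and 0.49 on arrays 1, 2 and 3, so the arrays disagreed. Ctnna1 (α-catenin), which joins the complex to actin, had -0.42, -0.46 and -0.14. Jup (plakoglobin), a relative of β-catenin in desmosomes and adherens junctions, had -0.85, -0.27 and -0.20, with array 1 apart.

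Ctnnd1 (p120 catenin), which keeps cadherins at the cell surface, had a mean of 0.20 ± 0.28 (SD, n = 3 arrays) from 2 features. Epcam, an epithelial adhesion molecule, had -0.26, 0.040 and -0.34, and like Cdh1 it did not keep 1 sign. Nectin1, an adhesion receptor that works beside cadherins, had a mean of -0.58 ± 0.14, negative on every array. Pkp4, an armadillo protein of junctions, had 0.82 ± 0.67, positive on every array. Among 11 further cadherins and cadherin-related genes, 2 were negative on every array (18.2%, near the 18.5% of all rows) and 0 positive, with a median of -0.18. The 2 were Cdh5 (VE-cadherin), the cadherin of endothelium, with -0.67, -0.55 and -0.44, and Cdh22 with -0.16, -0.87 and -0.053. Cdh16 lay below Cdh5 on each array, by a mean log2 difference of -1.07 ± 0.18.

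Of 9 transcription factors known to repress E-cadherin, 4 were positive and 3 negative on every array, beside 16.8% and 18.5% of all rows. Their median was 0.12. Twist1, a mesenchymal factor, had log2 ratios of 0.88, 0.75 and 0.62, all read as lower at 13.5 dpc. Snai1 had -0.88, -0.66 and -0.14, on the other side of zero from Twist1, and Snai2 had 0.12, 0.41 and -0.17. Zeb1 had -0.60, -0.27 and -0.0043. Zeb2 had 0.25, 0.75 and 3.66, where array 3 stood far from the others. The list thus held members on both sides of zero, beside a Cdh1 ratio near zero.

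Of 15 measured transcription factors of kidney epithelium, 7 were negative and 2 positive on every array, beside 18.5% and 16.8% of all rows. Their median was -0.19. Pax8, a factor of nephron and ureteric epithelium, had log2 ratios of -0.76, -0.68 and -0.94, and Pax2, its relative in the mesenchyme and the bud, had -0.81, -0.022 and -1.09. Irx2, a factor of the nephron's middle segments, had a mean of -0.66 ± 0.27, and Foxi1, a factor of intercalated cells, had 0.71 ± 0.53, each with 1 sign on every array. Lhx1, needed for the first nephron epithelium, lacked a value on array 1 and had 0.081 and -2.67 on arrays 2 and 3.

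The marker lists of epithelial compartments that carry cadherins differed in their medians. Of all rows, 18.5% were negative and 16.8% positive on every array, and 0.436% were negative and at least 2-fold on each. Of 11 early nephron markers, 8 were negative and 0 positive on every array and 5 were at least 2-fold on each, with a median of -1.02. Of 16 ureteric epithelium markers, 6 were negative and 2 positive on every array and 2 were at least 2-fold, with a median of -0.22. Those 2, Scnn1b (-1.35 ± 0.18) and Scnn1g (-1.17 ± 0.22), encode subunits of the epithelial sodium channel. The keratin gene Krt7 had -1.83 ± 1.47, negative on every array, while Ret, the bud tip receptor, had 0.30 ± 0.20, positive on every array. Of 12 proximal tubule markers, 3 were negative and 3 positive on every array (25% each), with a median of -0.071. The mean of Cdh16 (-1.62) lay below the medians of all 3 epithelial lists but not below all their members. The early nephron markers Sim2 (-2.71), Dll1 (-2.25) and Heyl (-1.88) had lower means, as did Krt7, and the other measured members had higher means. Krt7 had -1.37, -3.48 and -0.65 on arrays 1, 2 and 3, so it lay below Cdh16 on array 2 only.

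Markers of other cells were counted the same way, beside 18.5% of all rows negative and 16.8% positive on every array. Of 11 endothelium markers 8 were negative on every array (median -0.40), and of 10 gonad, adrenal and mesothelium markers 7 were (median -0.50). Of 12 blood markers 8 were positive on every array (median 0.40), of 10 cap mesenchyme markers 4 were negative and 1 positive (median -0.21), and of 14 stroma markers 6 were negative and 4 positive (median -0.045). Of 9 neuron and neural crest markers, 5 were negative and 2 positive on every array (median -0.28). At least 2-fold on every array were 3 blood markers, all positive, and 1 stroma marker, Penk, negative with a mean of -3.06. The other lists of this paragraph held none, beside 0.436% of all rows negative and 0.247% positive. The part of these cell types in the cadherin ratios was not tested.

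**Figure D4:**
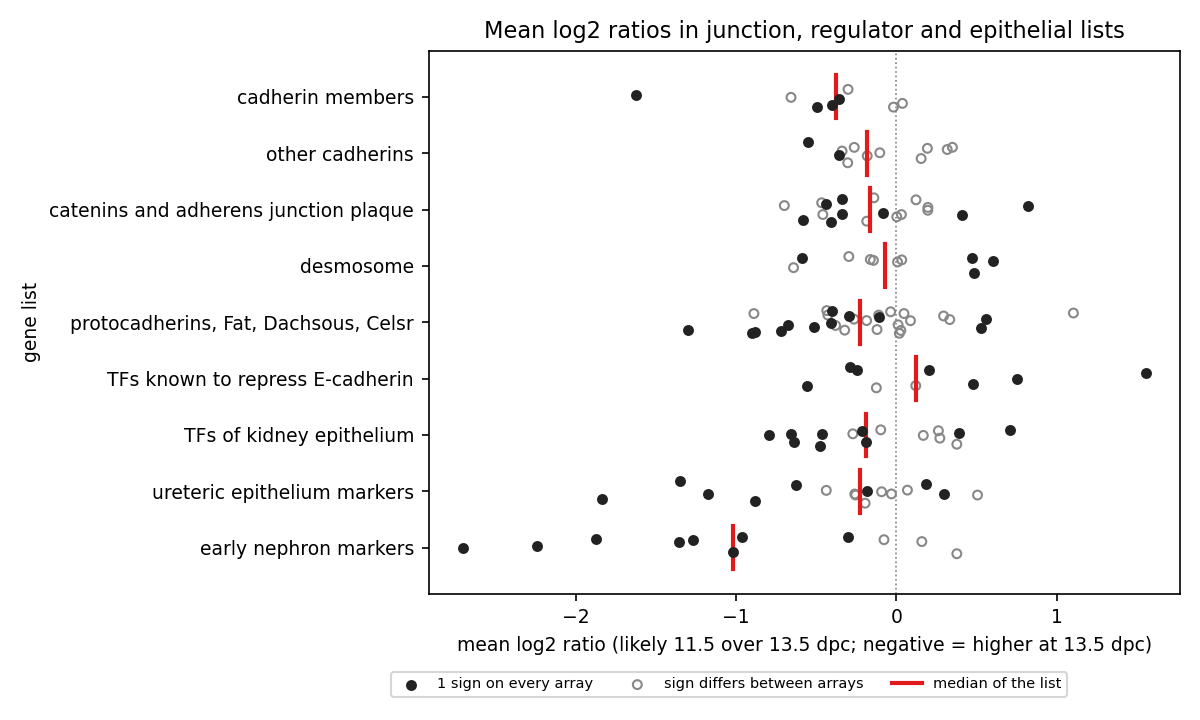
Mean log2 ratio over 3 arrays of each measured gene (points) in the cadherin list and 8 others (rows; TFs are transcription factors); filled points had 1 sign on every array, open points did not, and red bars are list medians. Cdh16 is the lowest cadherin at -1.62, the early nephron markers have a median of -1.02, and the other medians lie between -0.38 and 0.12.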

How the data were processed

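Each of 3 two-channel arrays compared both ages. The deposited values are log2 ratios: raising 2 to each value between -3 and 2 gave whole multiples of 0.001 for 100% of them, within 0.02 of a step, against 4.42% for base e. Images were read with ImaGene 5.5, per the labels, which give 2 accounts of normalisation (print-tip loess with a step between arrays, or a Lowess curve over 20% of the data with control values under 10 set to 10). The labels do not say which account applies to the log2 values. Dim or saturated spots could not be judged without spot intensities, which were not used here. The number of arrays limits the precision.

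Of 22702 features, 883 controls or blanks were left out. Of 21819 gene features, 16656 had 1 symbol, 137 several and 5026 none; Entrez identifiers matched 15970 to the GRCm38.p6 gene table and renamed 0. The 20386 features with values on all 3 arrays were averaged by symbol into 19015 rows. Limma 3.58.1 (R 4.3.3) set each row's mean against 0 (two-sided, Benjamini-Hochberg adjustment). The procedure was tried on these arrays with their values shuffled apart and known shifts added to some rows. The outcome is not given here, so nothing is read from it about ratios the size of that of Cdh16. Separate RNA extracts for the arrays are not mentioned in the labels, so p-values measure only the spread between arrays, which may be technical.

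The members and lists were chosen with earlier results of these data known. Named were all 10 cadherins; from other junction and regulator lists, genes past 2-fold on each array the same way, up to 3 with the largest means of 1 sign, and a few fixed genes, of which 1 is not reported here; and the 5 rows nearest to Cdh16. Marker lists are given mainly as counts. Other names were chosen after their values were seen. Alternatives left out each array, renormalised, turned array 3, added a dye term, kept single features, or subtracted a running median of 250 features on each side in library order.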

Additional observations from a re-analysis of the deposited data

How the results depend on the processing

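Limma called 0 rows under each of the 12 alternatives run (at an unadjusted p under 0.05, 736 to 2669 rows, against 1757 as reported), the dye term and the ordinary one-sample test included. Rows past 2-fold in the same direction on each array numbered 130. Turning array 3 gave 42, a limit of 1.5-fold gave 479 and one of 3-fold gave 28. Leaving out 1 array, which leaves fewer arrays to pass, gave 266 to 341. The 4 cadherins of 1 sign became 1 with array 3 turned. The mean of Cdh17 turned to 0.13 with array 3 turned. Over 10 alternatives Cdh16 ran from -1.77 to -0.57, Cdh3 from -0.47 to -0.16, Cdh4 from -1.07 to -0.18 and Cdh6 from -0.46 to -0.13, all below zero. The median over features of 1 symbol, among these 10, equals the mean for genes with 1 or 2 features, so it could not differ. None of the 10 separated the features of Cdh6, of which NM_007666 had a positive mean of 0.15. Cdh1 (-0.13 to 0.17), Cdh11 (-0.0076 to 0.22), Cdh13 (-0.62 to 0.016) and Cdh17 (-0.63 to 0.13) took both signs. Each ratio is itself a paired difference of both ages within an array, so no further block by replicate applies. The cause of these shifts was not tested.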

Other observations

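Cadherins outside the classical family also held genes of 1 sign. Of 30 measured protocadherin, Fat, Dachsous and Celsr genes, 10 were negative and 2 positive on every array, beside 18.5% and 16.8% of all rows. None was at least 2-fold on every array, beside 0.436% of all rows negative and 0.247% positive. Celsr1, a planar polarity cadherin, had log2 ratios of -0.73, -0.87 and -1.04 on arrays 1, 2 and 3, and Pcdhga12 had -1.33, -0.63 and -0.75. Pcdh9 had -0.12, -1.10 and -2.67, so its mean of -1.30 rests mainly on array 3. Fat1, a giant cadherin of epithelia and podocytes, had -0.50, -0.40 and -0.33, chosen after its values were seen. Protocadherin genes of 1 cluster are close copies, and their features may share signal.

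Among 10 desmosome genes, 1 was negative and 3 positive on every array, beside 18.5% and 16.8% of all rows. Their median was -0.068. Dsp (desmoplakin) had 0.57, 1.22 and 0.016, Dsg1a had 0.49, 0.50 and 0.47, and Dsg2, the desmosomal cadherin of simple epithelia, had -1.29, -0.13 and -0.34. Dsg1a and Dsg2 thus lay on opposite sides of zero on every array.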
